A study of Mus musculus with 4 samples.

Results

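The Kruppel-like factors described here are the products of 10 mouse genes, Klf2, Klf3, Klf4, Klf5, Klf6, Klf7, Klf9, Klf10, Klf13 and Klf15. No measured value entered the rule that picked their probes, but the 10 genes were themselves picked with earlier results of these data known, and other genes of the family are read further on. Every probe on the array that was not a control and that carried one of these names was taken, which gave 12 probes of the 39429 on the array and 10 of its 31829 gene names. Klf9 and Klf13 had 2 probes each, and the brighter one over the 4 arrays stood for the gene.

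Cells derived from mammary tumours of MMTV-Neu mice were compared on 1-colour Agilent arrays. The label Pak1-/- was carried by 2 of the samples and Pak1+/+ by the other 2, and within each group the samples came from different tumours. All 4 samples shared the Neu (Her2, gene Erbb2) transgene under the mammary tumour virus promoter, growth in low calcium medium with 5% horse serum, 3 h without serum and then 15 min of EGF. The comparison asks which transcripts differ between Neu tumour cells labelled as having and as lacking Pak1, a kinase downstream of Rac and Cdc42. The strain, the age of the mice and the number of passages are not given in the sources used here.

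Kruppel-like factors bind GC-rich and CACCC-containing DNA through a row of zinc fingers near their carboxyl end, and share this preference with the Sp factors. Outside the fingers they differ. Klf2, Klf4, Klf5, Klf6 and Klf7 mostly recruit acetyltransferases, Klf3 recruits the co-repressor CtBP, and Klf9, Klf10 and Klf13 recruit the co-repressor Sin3. In epithelia, Klf4 is known for growth arrest and differentiation and Klf5 for proliferation, and several members are induced within minutes to hours of a growth factor.

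The promoters of Klf4 and Klf6, the 2 members that were higher in the cells labelled Pak1-/-, and of Klf2, a known target of the MEF2 factors, are shown because Kruppel-like factors bind boxes of the kind that stand in their own promoters. Each line is the 250 bases before the RefSeq start on GRCm38.p6, read towards the gene, and capitals mark matches on either strand to the GC box (letters GGGCGG), the CACCC box (letters CACCC) and the MEF2 site. The windows are chr4:55532476-55532725 on the minus strand for Klf4, chr13:5861239-5861488 on the plus strand for Klf6 and chr8:72318812-72319061 on the plus strand for Klf2.
Klf4: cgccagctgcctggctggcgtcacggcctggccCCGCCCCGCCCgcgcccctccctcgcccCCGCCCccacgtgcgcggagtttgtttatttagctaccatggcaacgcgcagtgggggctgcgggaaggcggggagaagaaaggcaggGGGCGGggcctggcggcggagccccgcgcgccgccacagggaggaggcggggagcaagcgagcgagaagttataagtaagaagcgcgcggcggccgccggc
Klf6: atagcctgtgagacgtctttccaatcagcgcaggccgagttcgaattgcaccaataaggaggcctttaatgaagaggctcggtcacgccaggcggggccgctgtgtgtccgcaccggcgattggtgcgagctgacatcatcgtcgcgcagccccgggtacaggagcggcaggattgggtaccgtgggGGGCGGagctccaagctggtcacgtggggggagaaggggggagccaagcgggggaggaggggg
Klf2: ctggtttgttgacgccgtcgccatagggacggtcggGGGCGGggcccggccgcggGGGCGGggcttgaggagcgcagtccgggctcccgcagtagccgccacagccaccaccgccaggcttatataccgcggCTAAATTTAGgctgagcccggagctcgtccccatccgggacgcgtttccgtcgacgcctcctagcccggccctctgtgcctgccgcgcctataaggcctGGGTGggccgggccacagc
The Klf4 window held 4 GC boxes, at -217, -212, -189 and -101 from the start, of which the first 2 overlap by a base. The Klf6 window held 1 GC box, at -63, and 4 CCAAT boxes, which are not in capitals. The Klf2 window held 2 GC boxes, a CACCC match at -19 and a MEF2 site match at -118. GC boxes also stood in the windows of Klf3 (6), Klf13 (3), Klf7 (1) and Klf15 (1), and that of Klf9 held none. Klf5 and Klf10, the members called lower, had no promoter entry, so called members could not be compared by direction. No CArG box, the site of serum response factor, was found in any of the 8 member promoters that the table holds, and neither was the TATA box (TATAAA) or the cyclic AMP response element (TGACGTCA). Over 32526 distinct promoters of the same length, 33.0% held GGGCGG, 52.1% CACCC, 33.8% CCAAT, 12.3% TATAAA, 1.56% TGACGTCA, 1.48% a CArG box and 2.89% a MEF2 site. The GC content was 74.0% for Klf4, 64.8% for Klf6 and 71.2% for Klf2, against a median of 52.4% over all promoters.

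The probes on which the differences rest are shown by the first 30 of their 60 bases, as the array design gives them, for the 4 genes past the threshold and for the pairs of Klf9 and Klf13.
Klf4 probe: gtttattcccaagtatgcctttaagcagaa
Klf6 probe: tttaatactaagcagtccattctggtcagg
Klf5 probe: aaagtcgtctcacttaaaagctcacctgag
Klf10 probe: catatctcagaggtttctgacatgcaaact
Klf9 brighter probe: gagcaaacaattttaacttcatgaatttgt
Klf9 dimmer probe: gaccagggggcttttggatttcaggtttat
Klf13 brighter probe: ggctgcgagaaagtttacgggaaatcttcg
Klf13 dimmer probe: ttttagctttgaaagatacagcttccagaa
Each of the 12 probes was printed as 1 spot per array, none was saturated, and no other probe of the array had the same sequence. Probe positions are those of the array design on mm9. The Klf5 probe lies at chr14:99702656-99712388, a span of 9733 bases for a 60-base probe, so it crosses an intron and matches spliced RNA. The other probes map to unbroken runs of 60 bases.

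The arrays were alike in brightness, with median spot intensities of 322 to 331 and 62.2% to 70.4% of probes well above background, a flag set by the scanner software. Samples of a group correlated at 0.9966 or more across probes, and samples of different groups at 0.9593 or less. The probe for Pak1 itself gave 12.21 and 12.25 in samples labelled Pak1-/-, against 12.04 and 12.04 in the other group, so it was not lower in the former (difference 0.19, SE 0.068, adjusted p = 0.070, limma). It is not given in the sources used here whether the deleted part of the gene includes this probe, and the groups are therefore named by their labels throughout. The Erbb2 probe gave 11.91 and 11.95 in samples labelled Pak1-/- and 12.26 and 12.21 in the other group, and was called lower (difference -0.31, SE 0.069, adjusted p = 0.020, limma). Whether it reads the transgene is not given in the sources used here, and its part in the Klf values was not tested. Of the 5 epithelial markers, 4 were well above background on all arrays, with Krt19 the exception, and their summed linear level was 932273 to 946408 in the samples labelled Pak1-/- and 719440 to 722520 in those labelled Pak1+/+. The summed level of 6 leukocyte markers was 50435 to 72880 against 41580 to 46566, that of 6 fibroblast markers 1211 to 1372 against 1004 to 1051, and that of 5 endothelial markers 10007 to 10383 against 9063 to 10874. The groups overlapped for the endothelial markers alone, and the part of these cell types in the Klf values was not tested. By single genes, 3 epithelial markers were called higher (Cdh1, Krt8 and Krt18). Across the alternative settings 1 to 3 were called higher and 0 to 1 lower, with Krt18 higher in 6 of 13 and Krt8 in 12. Epcam and Krt19 were not past the threshold (-0.23 and -0.64), so that the epithelial sum follows Krt8 and Krt18. Krt19 read 6.94 and 7.05 against 8.13 and 7.14 (SE 0.33), so its difference rests mostly on Pak1+/+ replicate 1. Of the fibroblast markers 1 was called higher (Col1a1). Of the leukocyte markers 2 were called lower (Ptprc at -0.45 and Adgre1 at -1.05), and 0 to 1 were called higher across the alternative settings. No endothelial marker was called by limma or had an unadjusted p under 0.05. The leukocyte sum follows Itgam, which was not past the threshold (16.07 and 15.51 against 15.39 and 15.20, difference 0.49, adjusted p = 0.11, limma), and so runs against the leukocyte markers that were called. Col3a1, Dcn, Lum, Tek and Emcn were well above background on no array. Arrays labelled Pak1-/- took positions 1 and 2 of the slide and those labelled Pak1+/+ positions 3 and 4, so position and genotype cannot be told apart.

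Values below are normalized log2 intensities, and a difference is the mean of the samples labelled Pak1-/- minus the mean of those labelled Pak1+/+ (n = 2 each). A gene was called past the threshold when its adjusted p in limma, over all probes kept, was under 0.05. Of the 10 Klf genes, 4 were called, 2 higher (Klf4, Klf6) and 2 lower (Klf5, Klf10). Over the 21961 genes tested, 51.0% were called, 22.8% higher and 28.2% lower, so the count of Klf genes called is not a result about the family. The groups did not overlap for 6 Klf genes, against 77.6% of all genes. Klf4 and Klf5 were also at least 2-fold apart, where 12.6% of all genes were both called and at least 2-fold apart. The median difference was -0.16 over the Klf genes and -0.055 over all genes, and the median size of the difference was 0.31 and 0.32.

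**Figure D1:**
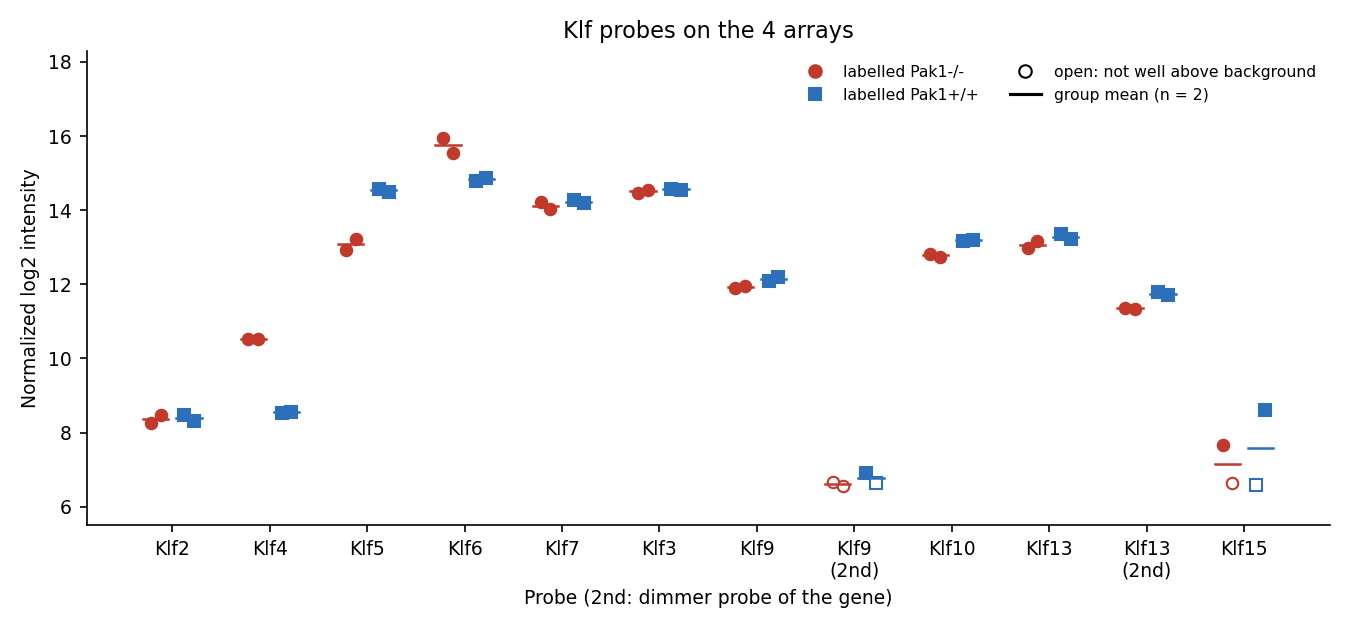
Normalized log2 intensity (vertical axis) of each of the 12 Klf probes (horizontal axis) on the 4 arrays; circles are samples labelled Pak1-/-, squares samples labelled Pak1+/+, short lines group means (n = 2), and open symbols values not well above background. The Klf4 and Klf6 circles lie above the squares, the Klf5 and Klf10 circles lie below them, and the Klf15 symbols of the groups interleave.

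Klf4, a factor of epithelial differentiation and growth arrest and one of the reprogramming factors, had the largest difference of the 10 genes. Its probe (chr4:55540167-55540226) read 10.53 and 10.52 in the samples labelled Pak1-/- and 8.54 and 8.56 in those labelled Pak1+/+. Both former samples were thus far above both latter ones, and the samples of each group were nearly equal (SD 0.0030 and 0.014). The group means were 3.93-fold apart (difference 1.97, SE 0.066, adjusted p = 0.000135, limma). Before any normalization the spots read 1445 and 1500 against 360 and 356, so the gap was there in the scanner values. A larger rise was seen for 521 of 21961 genes (2.37%). In bulk samples such as these, more RNA per cell and more cells of a type cannot be told apart.

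Klf6, an early growth factor response gene described as a tumour suppressor, was also higher. Its probe (chr13:5869371-5869430) read 15.95 and 15.55 in the samples labelled Pak1-/- and 14.80 and 14.88 in those labelled Pak1+/+. The groups were apart by 0.67 at their nearest samples, while the samples labelled Pak1-/- differed from each other by 0.40. The means were 1.88-fold apart (difference 0.91, SE 0.150, adjusted p = 0.0077, limma). The scanner values were 56364 and 49557 against 29830 and 29973. A larger rise was seen for 8.22% of genes.

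Klf5, a factor of epithelial proliferation, moved the other way. Its splice-crossing probe read 12.93 and 13.23 in the samples labelled Pak1-/- and 14.57 and 14.50 in those labelled Pak1+/+. Both former samples were lower, and the gap between the nearest samples was 1.27. The means were 2.74-fold apart (difference -1.45, SE 0.121, adjusted p = 0.0011, limma), and the scanner values were 7412 and 9983 against 25551 and 23237. A larger fall was seen for 577 genes (2.63%). Klf4 and Klf5, which are known to bind like sites with opposite effects on growth in gut epithelium, thus differed in opposite directions between the same samples.

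Klf2 and Klf7, the remaining members that recruit acetyltransferases, did not pass the threshold. Klf2, known from lung, T cells and the response of endothelium to flow, read 8.27 and 8.47 against 8.49 and 8.33 (chr8:74845137-74845196). Its groups overlapped, and the difference of -0.04 was smaller than its SE of 0.106 (adjusted p = 0.80, limma). Klf7, known from the growth of neurons, read 14.22 and 14.02 against 14.27 and 14.19 (chr1:64082265-64082324), again with overlap (difference -0.11, SE 0.096, adjusted p = 0.39, limma).

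Klf3, the member that binds CtBP, read 14.46 and 14.56 in the samples labelled Pak1-/- and 14.58 and 14.55 in those labelled Pak1+/+ (chr5:65221309-65221368). The groups overlapped (difference -0.05, SE 0.073, adjusted p = 0.58, limma). A probe that the array design describes as similar to this factor under a locus name (chr5:65223991-65224050), and which the choice by gene name left out, read 13.61 and 13.73 against 13.65 and 13.65 (difference 0.02, adjusted p = 0.86, limma).

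Among the members that recruit Sin3, Klf10 was called lower. Klf10, induced early by transforming growth factor beta, read 12.82 and 12.75 in the samples labelled Pak1-/- and 13.17 and 13.20 in those labelled Pak1+/+ (chr15:38224255-38224314). The groups were apart by 0.35, and the means by 1.32-fold (difference -0.40, SE 0.071, adjusted p = 0.0097, limma). The call was lost without Pak1+/+ replicate 2 (difference -0.39, adjusted p = 0.057, limma).

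Klf9, induced by thyroid hormone and glucocorticoids, read 11.91 and 11.96 against 12.09 and 12.21 (chr19:23240410-23240469). The groups did not overlap, but the threshold was not reached (difference -0.21, SE 0.078, adjusted p = 0.079, limma). Its dimmer probe, 2762 bases further on and described by the design as a predicted transcript, read 6.68 and 6.57 against 6.91 and 6.64 and was well above background on Pak1+/+ replicate 1 alone, so it was not tested.

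The probes of Klf13, known from T cells, differed in their calls. The brighter one (chr7:71082854-71082913) read 12.97 and 13.17 in the samples labelled Pak1-/- and 13.35 and 13.22 in those labelled Pak1+/+. The groups were apart by 0.045 and the difference was not past the threshold (-0.21, SE 0.102, adjusted p = 0.15, limma). The dimmer one (chr7:71032482-71032541), designed on a cDNA record that matched no RefSeq symbol, carries the Klf13 name in the array design alone. Its position is written in ascending order, opposite to that of the brighter probe and to the minus strand of Klf13, so it is not shown to read Klf13 mRNA. It read 11.37 and 11.34 against 11.79 and 11.70 and was called lower (difference -0.40, SE 0.073, adjusted p = 0.011, limma). That call was lost without Pak1+/+ replicate 1 (-0.35, adjusted p = 0.066, limma). Another probe that the design describes as Klf13 but files under a transcript name read 7.63 and 7.64 against 7.69 and 7.63 (difference -0.02, adjusted p = 0.81, limma). Averaging the probes of each gene gave 3 genes called lower in place of 2, since Klf13 then took up the value of this dimmer probe, and that count is not evidence on Klf13 mRNA.

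Klf15, a regulator of amino acid and glucose metabolism in liver, muscle and heart, was at the edge of detection. Its probe (chr6:90425144-90425203) read 7.68 and 6.65 in the samples labelled Pak1-/- and 6.58 and 8.60 in those labelled Pak1+/+, and was well above background on 1 array of each group. The samples within a group were further apart than the group means (difference -0.43, SE 0.747, adjusted p = 0.66, limma).

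**Figure D2:**
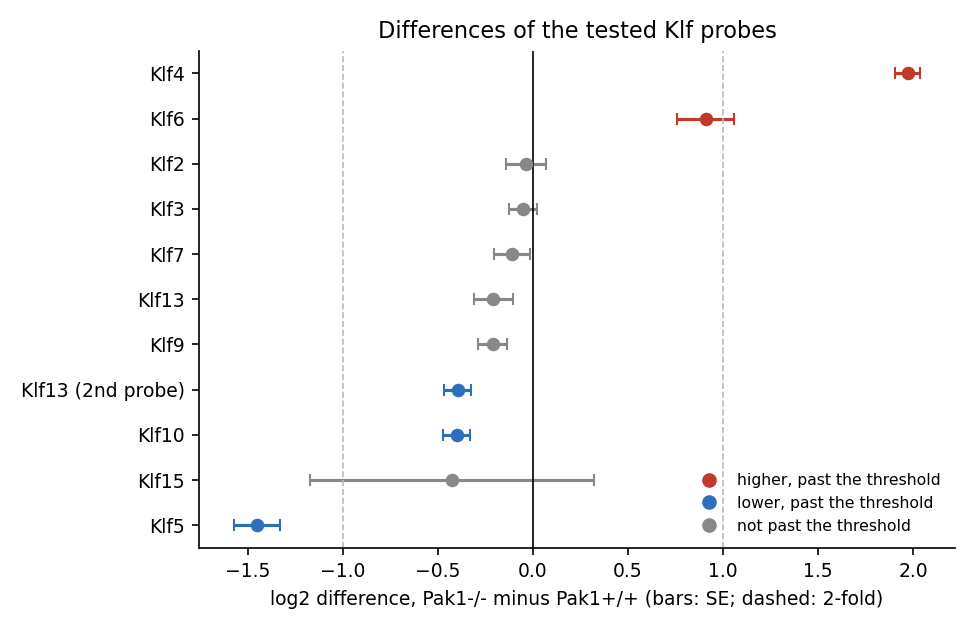
Difference in normalized log2 intensity, Pak1-/- minus Pak1+/+ (horizontal axis), of the 11 tested Klf probes (rows); bars are the SE of the fit and dashed lines mark 2-fold. Klf4 at 1.97 and Klf5 at -1.45 lie beyond the dashed lines, Klf6 at 0.91 lies short of them, and the bar of Klf15 (SE 0.747) spans 0.

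**Figure D3:**
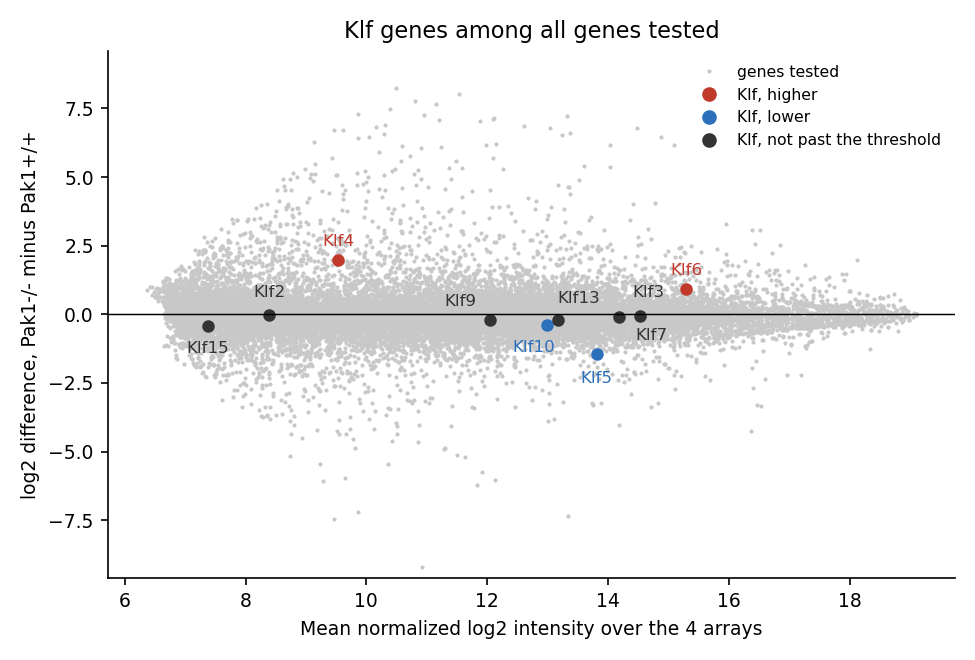
Difference, Pak1-/- minus Pak1+/+ (vertical axis, log2), against the mean normalized log2 intensity over the 4 arrays (horizontal axis) for 21961 genes by their brightest probe (grey), with the 10 Klf genes in colour. The grey cloud ranges from -9.20 to 8.24. Klf4 and Klf5 lie inside it but away from its centre, and 6 Klf genes lie near its centre without passing the threshold.

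The remaining genes of the family were read in the same way. Of 8 others, 7 had a probe (Klf18 had none) and 6 were tested. Klf8 passed the filter on dim probes through the samples labelled Pak1-/- alone, and of the other 5 tested, 2 were called higher (Klf11 and Klf12) and 1 lower (Klf16), against 22.8% and 28.2% of all genes. Klf8 and Klf12 belong with Klf3 to the members that bind CtBP. Klf8 read 9.68 and 9.26 in the samples labelled Pak1-/- and 6.65 and 6.74 in those labelled Pak1+/+, where it was not well above background on either array. It was at least 6.08-fold higher, and its adjusted p (0.00044, limma) is that of a gene that entered the test only because it was high in one group. Klf12 read 8.90 and 8.84 against 8.26 and 8.07 (difference 0.71, adjusted p = 0.0039, limma).

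Klf11, Klf14 and Klf16 recruit Sin3 as Klf10 does. Klf16 read 10.51 and 10.51 against 10.87 and 10.98 and was called lower (difference -0.42, adjusted p = 0.010, limma), though not without Pak1+/+ replicate 2. Klf11 read 8.94 and 9.07 against 8.77 and 8.69 (difference 0.28, adjusted p = 0.044, limma), and kept its call in 5 of 13 alternative settings. Klf14 was not well above background on enough arrays to be tested. Klf1, the erythroid member, and Klf17 were not past the threshold, with differences of -0.07 each.

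The Sp factors bind the same GC boxes. Of 9, 7 were tested (Sp5 and Sp9 were not), none was called higher (0 at an unadjusted p under 0.05, limma) and 3 were called lower, with a median difference of -0.34, where 28.2% of all genes were called lower. The largest falls were those of Sp2, which read 10.02 and 10.01 against 10.49 and 10.55 (difference -0.51, adjusted p = 0.0043, limma), and Sp6, a factor of tooth and skin epithelium, which read 7.89 and 7.74 against 8.41 and 8.18 (difference -0.48, adjusted p = 0.022, limma). Sp1, the founding member, was the remaining factor called lower (-0.34, adjusted p = 0.036, limma), and Sp8 had a difference of -0.39 without passing the threshold (adjusted p = 0.0503, limma). Across 13 alternative settings 1 to 4 Sp factors were called lower, Sp2 in all, Sp6 in 10 and Sp1 in 7. The Sp1 call was lost under the replicate block, cyclic loess and no filter. Both the Sp1 and the Sp6 call were lost without Pak1-/- replicate 1, without Pak1-/- replicate 2 and without Pak1+/+ replicate 1.

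Of 12 co-regulators and ubiquitin ligases of Kruppel-like factors, 3 were called higher and 2 lower, with a median difference of 0.08, against 51.0% of all genes called in either direction. The largest rises were those of Hdac1, a deacetylase of the Sin3 complex (difference 1.06, adjusted p = 0.00060, limma), and Fbxw7, which marks several of these factors for degradation (0.49, adjusted p = 0.0059, limma). The falls were those of Wwp1, the ligase known to degrade Klf5 protein (-0.80, adjusted p = 0.0014, limma), and Hdac2 (-0.34, adjusted p = 0.028, limma). Sin3b, a scaffold of the Sin3 complex, was the third gene called higher (0.38, adjusted p = 0.011, limma). Across 13 alternative settings 2 to 5 of these genes were called higher and 1 to 3 lower, with the Sin3b call kept in 10 and the Hdac2 call in 8. RNA of Klf5 and of Wwp1 was thus lower in the same samples, and protein was not measured.

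The MEK5, ERK5 and MEF2 branch is known to act on the Klf2 and Klf4 promoters. Of its 8 genes, 1 was called higher and 3 lower, against 51.0% of all genes in either direction, with a median of 0.01. Map3k2, the kinase above MEK5, was lower by 0.60 (adjusted p = 0.0024, limma), Mef2a by 0.42 (adjusted p = 0.0071, limma), and Map2k5, which encodes MEK5, was higher by 0.24 (adjusted p = 0.037, limma). The third gene called lower was Mapk7, which encodes ERK5 (-0.38, adjusted p = 0.0099, limma). The Map2k5 call held in 5 of 13 alternative settings and was lost on leaving out any sample, and the Mapk7 call was lost without Pak1+/+ replicate 2 alone. Of the 8 member promoters, that of Klf2 alone held a MEF2 site match in the 250 bases searched, and the difference of Klf2 was -0.04.

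Of 14 genes described as targets of Kruppel-like factors in various tissues, 12 were tested, 4 were called higher and 4 lower, and 7 were at least 2-fold apart, with a median of 0.22. Over all genes, 51.0% were called and 12.6% were called and at least 2-fold apart. The list was chosen with earlier results of these data known, so its counts beside these shares are not a result about such targets. S1pr1 and Alpi were not tested. Pdgfa, a growth factor gene described as activated by Klf5, read 16.71 and 16.64 in the samples labelled Pak1-/- and 15.23 and 15.32 in those labelled Pak1+/+ (difference 1.40, adjusted p = 0.00041, limma). Cdh1, E-cadherin, described as activated by Klf4, read 12.91 and 12.70 against 11.57 and 11.67 (difference 1.19, adjusted p = 0.0012, limma). Fgfbp1, a carrier of fibroblast growth factors described as activated by Klf5, read 7.42 and 7.32 against 11.88 and 11.57 (difference -4.35, adjusted p = 0.00010, limma). Prodh, proline dehydrogenase, described under Klf15, read 8.72 and 8.60 against 10.76 and 10.85 (difference -2.15, adjusted p = 0.00018, limma). Bcat2 (1.01) and Dio1 (0.52) were the other genes called higher, and Nos3 (-1.36) and Ccnd1 (-1.34) the others called lower. The 4 tested targets not past the threshold were Cdkn1a (0.24, adjusted p = 0.15, limma), Thbd (0.22), Slc2a4 (0.21) and Smad7 (0.12). Across the alternative settings 4 to 7 targets were called higher and 4 lower, and Dio1 lost its call without Pak1-/- replicate 1. The described Klf5 targets Pdgfa and Fgfbp1 therefore differed in opposite directions, with Klf5 itself lower. Cdh1 is also an epithelial marker, and of the other 4, Krt8 was called higher in 12 of 13 alternative settings, Krt18 in 6, and Epcam and Krt19 had differences of -0.23 and -0.64. The Krt19 difference (SE 0.33) rests mostly on Pak1+/+ replicate 1, which read 8.13 against 7.14 in replicate 2. The part of epithelial content in the Cdh1 value was not tested.

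**Figure D4:**
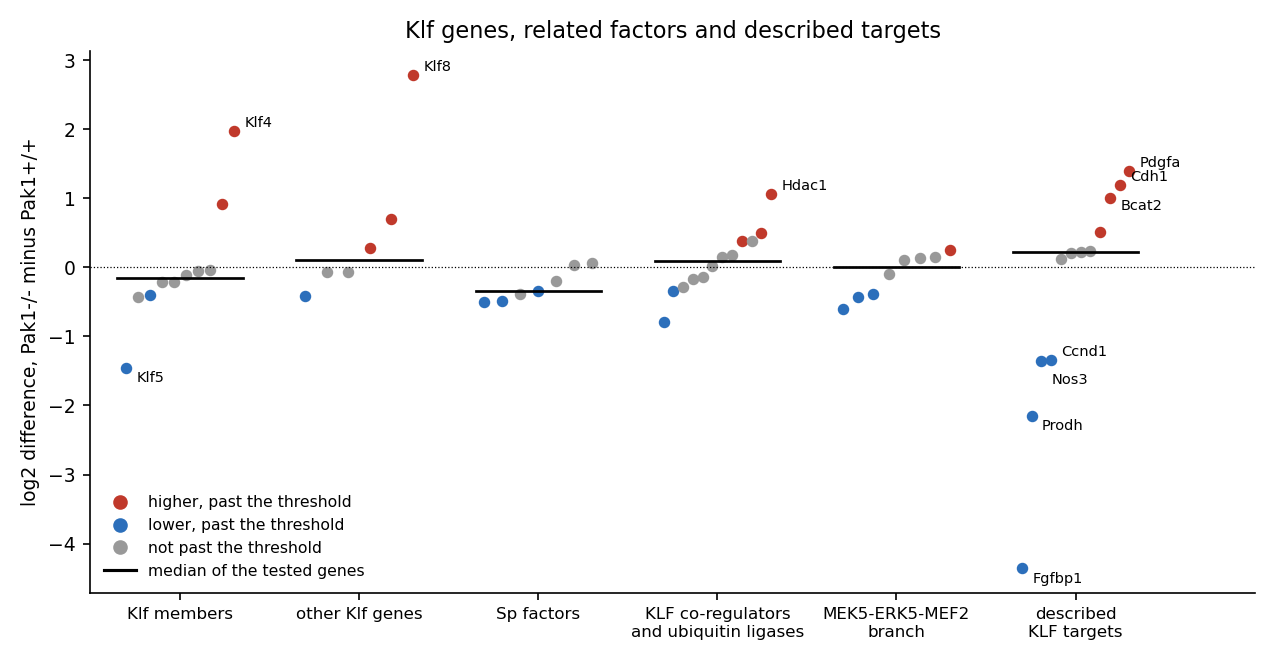
Difference in normalized log2 intensity, Pak1-/- minus Pak1+/+ (vertical axis), of the tested genes of 6 lists (horizontal axis), each point a gene and each black line the median of a list; red and blue mark genes called higher and lower, and called genes at least 2-fold apart are named (Klf8 stands at its fitted value, for which only a bound of at least 6.08-fold holds). The Klf members range from -1.45 to 1.97, the Sp factors from -0.51 to 0.05 and the described targets from -4.35 to 1.40.

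Since the cells were harvested 15 min after EGF, the immediate early genes were read beside the family. All 18 were tested, 11 were called higher and 4 lower, with a median of 0.53, against 22.8% and 28.2% of all genes. This list too was chosen with earlier results of these data known. Across the alternative settings 9 to 12 were called higher and 2 to 4 lower. All samples had received EGF, so these are differences between the groups and not responses to EGF. The largest positive differences were those of Jun (2.51, adjusted p = 0.00089, limma) and Cyr61 (2.19, adjusted p = 0.0017, limma). The largest negative ones were those of Myc (-1.20, adjusted p = 0.00089, limma) and Fosl1 (-1.16, adjusted p = 0.018, limma). Ier3 (-0.59) and Fosb (-0.81) were also called lower. Fosb kept its call in 6 of 13 settings and Fosl1 in 11, the latter losing it without either sample labelled Pak1-/-. Replicate 1 was above replicate 2 for 13 of the 18 genes in the samples labelled Pak1-/- (median 0.26) and for 16 in those labelled Pak1+/+ (median 0.20). Over all genes tested this held for 50.3% and 51.2%, and for 5 of the 10 Klf genes in each group. Klf6 was higher in replicate 1 by 0.40 among the samples labelled Pak1-/-, and lower in replicate 1 by 0.080 among those labelled Pak1+/+. The part of the timing of harvest in these values was not tested.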

How the data were processed

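Total RNA was labelled with Cy3 and hybridised to 4 Agilent mouse arrays. The files that the authors deposited hold linear spot intensities with local backgrounds and flags, made with Feature Extraction 9.5.3.1 per the file headers, not normalized between arrays. A table of log2 values for 24008 probes, deposited by the authors, had been normexp corrected and quantile normalized according to their methods. These correlated with the values computed here at 0.9998 or more on each array and served as an alternative.

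Here the 43020 spots that are not controls were corrected with normexp (offset 50) and quantile normalized in limma 3.58.1 (R 4.3.3), and spots of a probe were averaged. A probe was kept if it stood well above background on 2 or more arrays (27229 probes), which included 11 of the 12 Klf probes. Genotype was tested with lmFit and eBayes, two-sided, with Benjamini-Hochberg adjustment over all probes kept (threshold 0.05). The offset and the filter were set here. The offset understates changes of dim probes, and brightness limits which probes can be read. Only 2 arrays a group limit the precision, with 2 residual degrees of freedom and a prior that adds 2.62. A fold called "at least" sets the bright group's mean against, per array, the higher of the dim probe and the lowest probe well above background. The script was tested on simulated data.

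The members and lists were chosen with earlier results of these data known. Every member probe was named, every other Klf gene, and from other lists the called genes with the 2 largest differences in each direction. Genes beside these were named after their values were seen. Promoters are those of RefSeq on GRCm38.p6, where 8 of 10 members matched. Across all probes the replicate numbers did not pair the samples (correlation of deviations -0.028). This does not exclude pairing in some genes. Replicate 1 was above replicate 2 for 13 of 18 immediate early genes in the samples labelled Pak1-/- and for 16 in those labelled Pak1+/+. Alternatives were other background corrections, normalizations, filters, thresholds, priors, a replicate block and leaving out each sample.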

Additional observations from a re-analysis of the deposited data

How the results depend on the processing

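Klf4, Klf5 and Klf6 kept their direction and their call in all 13 alternative settings of background, normalization, source, filter, prior, block and samples, with ranges of 1.96 to 2.22, -1.60 to -1.30 and 0.71 to 1.11. Asking for at least 2-fold left 1 Klf gene higher and 1 lower, and 3413 of the 14132 probes called across the array, while an adjusted p under 0.01 left 8878 probes. Leaving out a sample gave 10307 to 12164 probes, 1 to 2 Klf genes lower (1 without Pak1+/+ replicate 2) and a Klf median of -0.15 to -0.11, and cyclic loess gave a median of -0.069. The replicate block gave 13211 probes and changed no Klf call. Under cyclic loess Klf2 was at 0.021 and Klf3 at 0.040, opposite in sign to their main values, while the median of all genes moved by 0.054, from -0.055 to -0.00081. Leaving out a sample moved Klf2 between -0.13 and 0.061 (0.061 without Pak1-/- replicate 1, 0.045 without Pak1+/+ replicate 1) and Klf15 between -1.43 and 0.58 (0.58 without Pak1+/+ replicate 2, 0.087 without Pak1-/- replicate 2). Without Pak1-/- replicate 1 or 2, Klf3 was at -0.0075 or -0.099, Klf7 at -0.21 or -0.011 and the brighter Klf13 probe at -0.11 or -0.31. None of these was called with all 4 samples. Of 142 values of single Klf probes, 134 kept sign and call, 6 turned sign and 2 lost a call (Klf10 and the dimmer Klf13 probe). The cause of these changes was not tested. With a sample left out, the lone sample of its group was assumed to vary like the other group. Klf15 had no value where all 4 arrays had to be well above background. All arrays lay on 1 slide, so no slide block was possible.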
